A study of Mus musculus with 19 samples.

Results

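The genes encoding the protein subunits of the cytosolic ribosome, together with genes whose names class them as close copies, were followed through 7 sorted populations of mouse blood formation. Members were the probes annotated with a RefSeq mRNA accession whose mouse symbol begins with Rpl or Rps and a number, plus Rpsa and the stalk genes Rplp0, Rplp1 and Rplp2. S6 kinases and symbols of pseudogenes were left out. The rule found 177 probes of 59628 and 87 genes of 20659 named genes on the array. Of these, 50 carry large-subunit symbols, 3 are stalk genes and 34 carry small-subunit symbols. A gene was represented by its brightest probe; 34 members had 1 probe and 53 had several. By name, 10 of the 87 are copies or other genes caught by the rule (Rpl3l, Rpl7l1, Rpl10l, Rpl22l1, Rpl32l, Rpl36al, Rpl39l, Rps27l, Rps23rg1 and Rps19bp1), which leaves 77 symbols of ribosome subunits.

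The study measured total RNA on 19 custom single-colour Agilent arrays, 1 per sample, designed to profile long noncoding RNAs beside catalogue genes in blood cells. All cells came from adult bone marrow of C57BL/6 mice aged 8 to 12 weeks and were separated by surface markers. LSK cells (no lineage markers, cKit+ and Sca1+, 3 arrays) hold stem and multipotent progenitor cells. Common myeloid progenitors (CMP, CD16/32 low and CD34 high, 3 arrays) give rise to megakaryocyte-erythroid progenitors (MEP, low for both markers, 3 arrays) and granulocyte-macrophage progenitors (GMP, high for both, 2 arrays). Early erythroblasts (EE, 2 arrays) were Ter119+ with high forward scatter and high CD44, late erythroblasts (LE, 3 arrays) were Ter119+ with low scatter and intermediate CD44, and granulocytes (GR, 3 arrays) were Gr1+. The gates are the only definition of each population, and no allele or treatment separates the groups. The labels do not say how many mice gave each sample. The p-values therefore rest on the spread among arrays of a group, part of which may be technical.

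Ribosomal proteins assemble with ribosomal RNA in the nucleolus into a large and a small subunit, which leave the nucleus separately and join on mRNA in the cytosol. Their mRNAs are among the most abundant in dividing cells, and most begin with a C followed by a run of C and T, the 5′ terminal oligopyrimidine tract. This tract lets the kinase mTOR and the RNA-binding protein Larp1 set their translation together. In blood, loss of 1 copy of a ribosomal protein gene such as RPS19, RPL5 or RPL11 causes Diamond-Blackfan anemia in humans, in which red cell precursors fail while other lineages are less affected. Ribosomes are removed altogether before a reticulocyte becomes a red cell.

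The sequence around the listed start is shown here for members on which the results below turn. Each window holds 30 bases on the gene's strand, of which the annotated transcription start is base 15, from RefSeq's promoter table (build GRCm38.p6); capitals mark the longest uninterrupted run of C and T, or the first of equally long runs, as in Rplp0 and Rpl5. The first group had runs of at least 8 bases: Rpl35 (chr2:39005116-39005145, minus strand), Rps18 (chr17:33955650-33955679, minus), Rpl18 (chr7:45718057-45718086, plus), Rplp2 (chr7:141447637-141447666, plus), Rps27l (chr9:66946072-66946101, plus) and Rps24 (chr14:24490664-24490693, plus). The run spanned the start in Rpl35, Rps18, Rplp2 and Rps24, began right after it in Rpl18 and lay wholly before it in Rps27l, so a run in the window is not by itself a terminal tract. The second group had shorter runs, none of which covered the start: Rpl41 (chr10:128549153-128549182, minus), Rpl5 (chr5:107900514-107900543, plus), Rps19 (chr7:24884578-24884607, plus) and Rplp0 (chr5:115559453-115559482, plus).
Rpl35: ggccccgCCCTTTCCTCTTTCTCTCgaacc
Rps18: acgtcacttccgCTCTCTCTTCCacaggag
Rpl18: gcgtctcgcaggccgCTCTTTCCCCgccca
Rplp2: gcgtcagcgTCTTCCTTTCgccgccggacg
Rps27l: caCTCCTCCCCgccgcctctatcccggaag
Rps24: ccgcgctggggTCCTTCCTTgcgcgttgat
Rpl41: acacgggccggCTCggaagtgacgacaccg
Rpl5: CTCacgtcgcttgcgtgctggtggtgctac
Rps19: ccgaaaTCTCgcgagactcgacgcccgact
Rplp0: TCTTCgggtttcgaggaccgcctggttctc

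Of the 87 members, 67 matched an entry of the promoter table. A run of at least 8 C or T bases lay somewhere within the window in 28 of these 67 (41.8%), against 3154 of 27025 genes in the whole table (11.7%). Among 300-base promoters, CCGGAAG, the core bound by ETS-family factors, occurred on either strand in 25 members (37.3%, against 9.12% of all genes). AAGATGG, part of the YY1 motif, occurred in 9 members (13.4%, against 6.48%). TATAAA occurred in 7 members (10.4%, against 14.2%). These matches describe the letters of the windows and are not evidence of binding. The medians of the differences described below lay near each other with and without the long run: the median log2 difference was -0.67 with it and -0.77 without it from MEP to early erythroblast, and -1.26 and -1.25 from GMP to granulocyte.

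Levels are given as log2 intensity minus the 75th percentile of the same array, so they state a gene's level relative to the rest of that array and not RNA per cell. In sorted bulk samples, fewer cells of a type and less RNA per cell cannot be told apart. The 75th percentile itself was 49.2 to 78.7 intensity units on the 5 erythroblast arrays and 250.3 to 568.1 on the others, and 42.9 to 47.1% of spots were well above background on the former against 49.5 to 66.3% on the latter. The summed stem, erythroid and granule markers were highest where the labels place them, but were not restricted to those populations. Of the stem markers, Ly6a was higher in granulocytes (5.743) than in LSK (3.674), while Hlf, Procr, Mecom and Meis1 were highest in LSK. The summed megakaryocyte and platelet markers overlapped between MEP (6.25 to 6.538) and CMP (6.26 to 6.64). The summed erythroid markers lay at 13.63 to 14.45 in erythroblasts, 9.28 to 9.37 in granulocytes and 3.99 to 7.38 in the 4 stem and progenitor populations, where MEP (6.84 to 7.38) and CMP (6.88 to 7.34) overlapped. Secondary and tertiary granule genes lay at 12.01 to 12.19 in granulocytes, 8.91 to 9.02 in late erythroblasts, 8.57 to 8.96 in GMP and 8.23 to 8.61 in LSK. The number of arrays limits precision, and the arrays lay on 5 slides.

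Ribosomal protein mRNAs were higher in the 4 stem and progenitor populations than in maturing cells. The median was taken over the 84 members well above background on all 19 arrays. It was 8.63 ± 0.04 (SD, n = 3) in LSK, 8.92 ± 0.06 (n = 3) in CMP, 8.87 ± 0.07 (n = 3) in MEP and 9.0 ± 0.03 (n = 2) in GMP. It was 7.96 ± 0.20 (n = 2) in early erythroblasts, 6.99 ± 0.11 (n = 3) in late erythroblasts and 7.73 ± 0.07 (n = 3) in granulocytes. None of the array medians of these last 3 populations reached those of the other 4. As a share of the summed signal of all features, all 87 members made up 8.17 to 9.19% in LSK, CMP, MEP and GMP, 3.71 to 4.01% in early erythroblasts, 1.98 to 2.26% in late erythroblasts and 5.09 to 5.26% in granulocytes. Leaving the globins out of the sum changed the late erythroblast share only to 2.06 to 2.37%. A share of signal depends on probe brightness and is not a share of molecules.

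**Figure D1:**
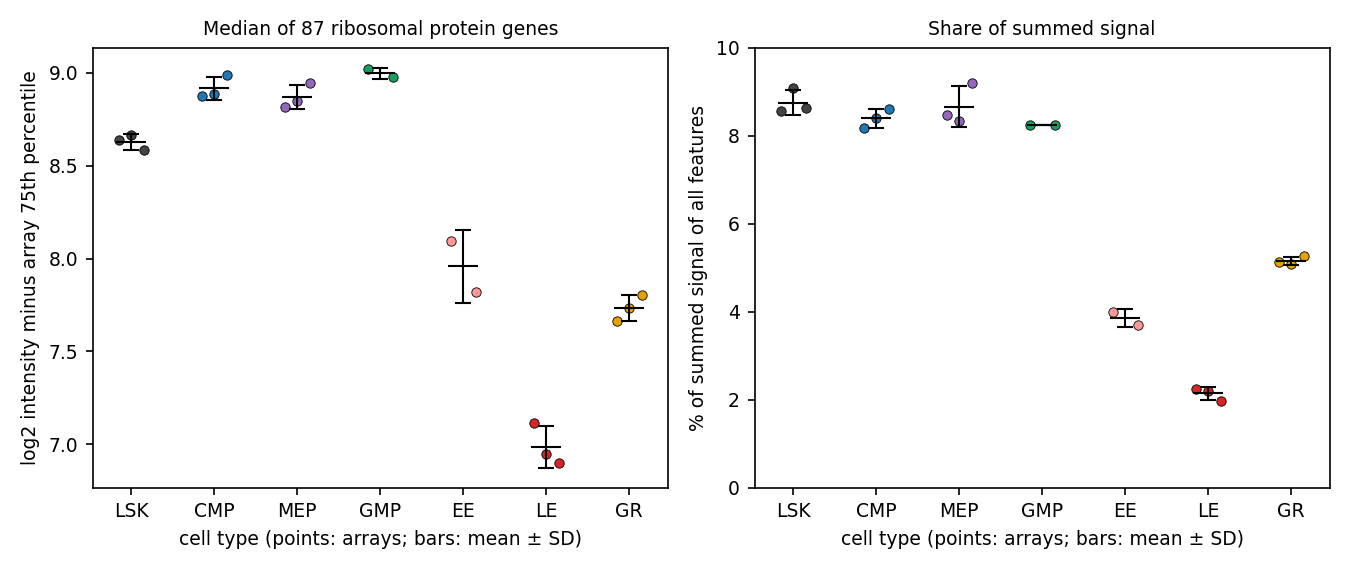
Each point is 1 array; the horizontal mark and bar give the mean ± SD of each cell type. The left panel, whose title counts all 87 members, plots the median log2 level relative to the array's 75th percentile. That median was taken over the 84 members well above background on every array. The right panel plots the share of all 87 members in the summed signal in percent. LSK, CMP, MEP and GMP lie at 8.24 to 8.76% on average, early erythroblasts at 3.86%, late erythroblasts at 2.15% and granulocytes at 5.16%.

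The members moved largely as a block. Well above background on all 19 arrays were 84 of the 87; the exceptions, Rpl3l, Rpl10l and Rpl39l, are described below. Of the 84, 63 had their highest cell type mean in GMP, 10 in CMP, 6 in MEP, 4 in early erythroblasts and 1 in late erythroblasts. The place of GMP depended on scaling. Its family median was the lowest of the 4 stem and progenitor populations with the percentile over detected probes (5.02) and after quantile normalization (8.73). With spike-in scaling it was 4.51 in GMP and 4.52 in LSK. The LSK arrays then ran from 3.47 to 5.14, so no order of GMP and LSK is given for that scaling. Late erythroblasts gave the lowest mean for 76, granulocytes for 7 and GMP for 1. Over the 7 cell type means, 72 of the 84 had a Pearson correlation above 0.9 with the family median, and the median correlation was 0.97. Each gene was left out of the median it was set against. These correlations still share the arrays and the scaling, and are given as a description. Rpl5, Rpl32 and Rps19 followed the family with larger steps, whereas Rpl41 (0.04), Rpsa (0.31), Rps29 (0.38), Rps12 (0.59) and Rplp0 (0.63) followed it poorly and Rps23rg1 ran against it (-0.94).

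**Figure D2:**
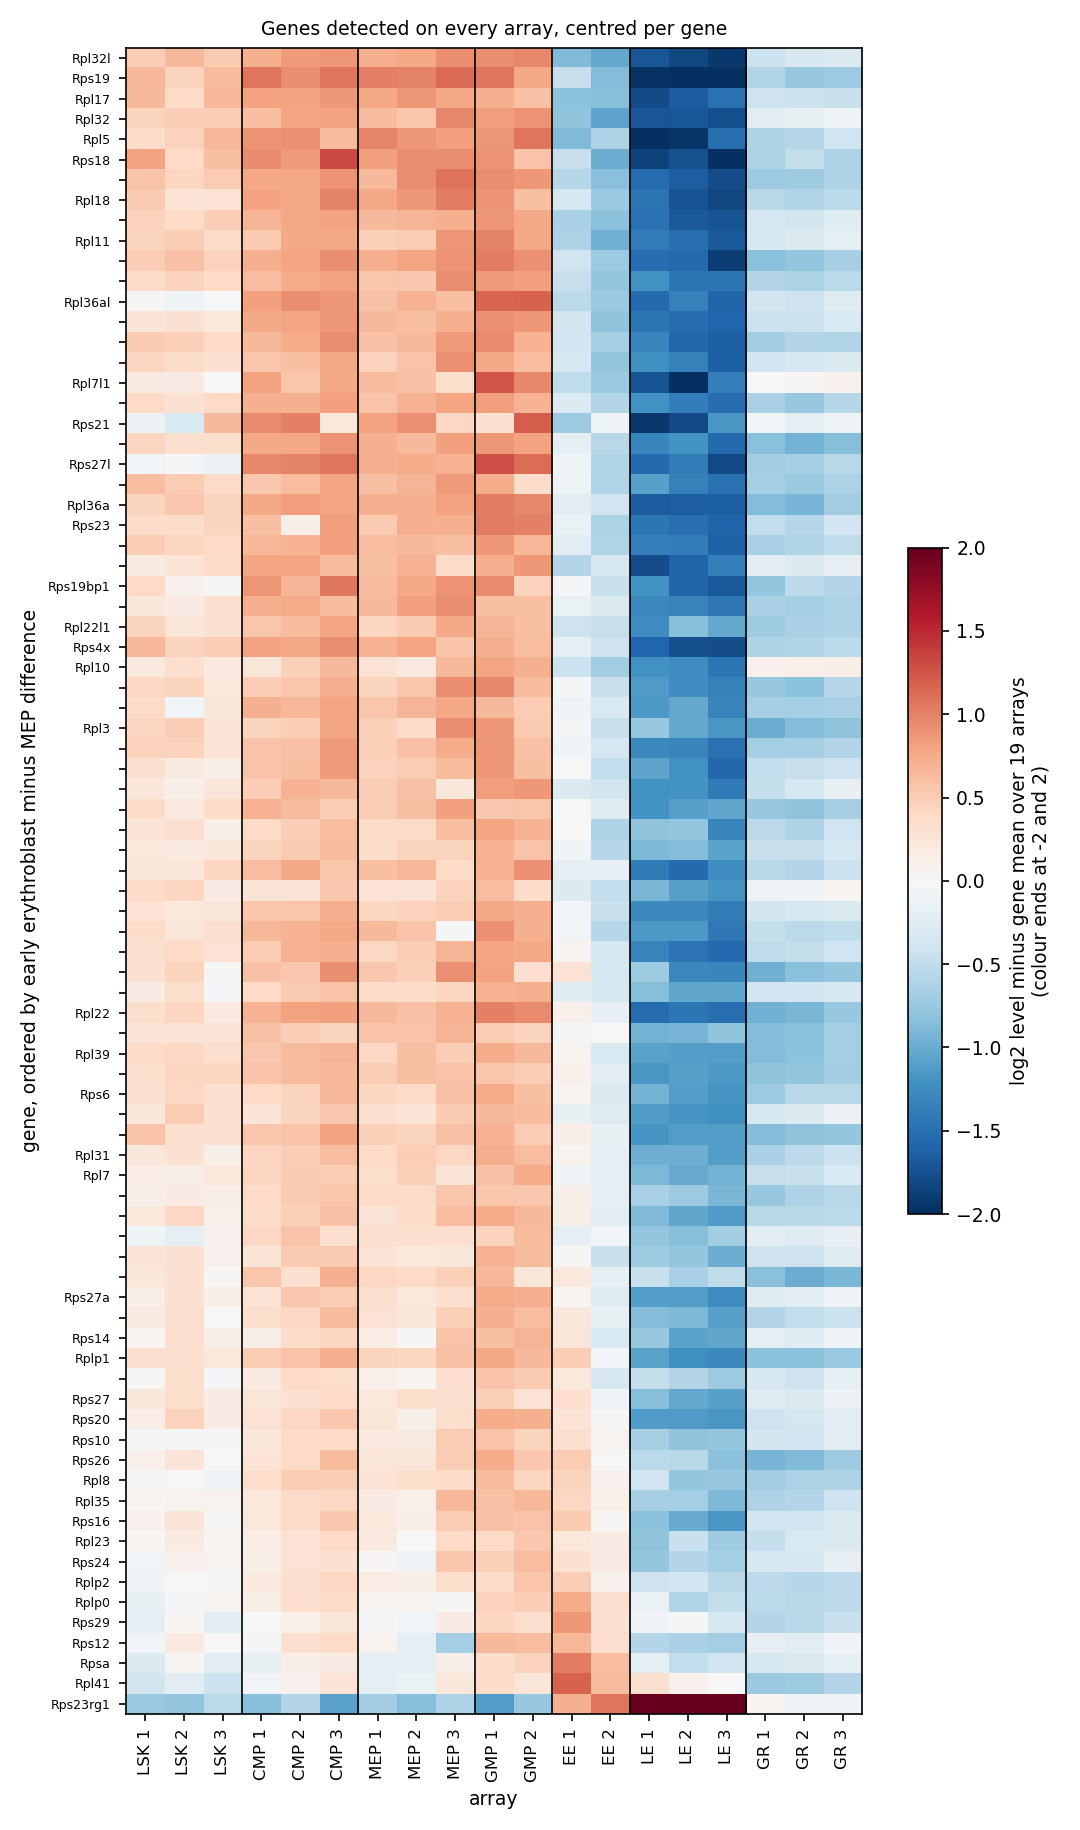
Rows are members well above background on every array, those named in the text being labelled, ordered by the early erythroblast minus MEP difference, and columns are the 19 arrays. Colour gives the log2 level minus the gene's own mean over the arrays, ending at -2 and 2. Most rows are red in CMP, MEP and GMP and blue in late erythroblasts and granulocytes; Rps23rg1 is red in erythroblasts and Rpl41, Rpsa, Rps12 and Rps29 stay at or above their mean in early erythroblasts.

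To ask whether leaving the stem cell gate was accompanied by a change, CMP were compared with LSK. Among the members, 2 copies of subunit genes, Rps27l and Rpl36al, showed the largest rises. Of 86 members tested, 33 rose and 1 fell (limma, adjusted p under 0.05), against 23.7% of all features called higher and 13.3% called lower. The median member difference was 0.30 on the log2 scale and that of all features 0.18. This direction depended on scaling: the member median was -0.03 after quantile normalization and -0.04 with the percentile taken over detected probes, and both left 2 members higher. Within the 2 slides that held both populations it was 0.33 and 0.40.

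Rps27l, a copy of Rps27 known as a target of p53, measured 5.83, 5.86 and 5.78 in LSK and 6.85, 6.88 and 6.96 in CMP. It rose by 1.07 ± 0.13 (SE, adjusted p = 1.72e-05, higher in 3 of 3 CMP arrays). Relative to the family median of the same array, a measure that a shift of the whole array cannot move, Rps27l lay at -2.81 to -2.80 in LSK and at -2.03 to -2.0 in CMP. The groups did not overlap on either scale. Its parent Rps27 differed by 0.07 ± 0.12 and was not called (adjusted p = 0.677); the difference between copy and parent was not tested. Rpl36al, a copy of Rpl36a, measured 6.29, 6.18 and 6.28 in LSK and 7.08, 7.19 and 7.13 in CMP, a rise of 0.88 ± 0.10 (adjusted p = 8.84e-06). Rpl36a itself rose by 0.31 ± 0.09 (adjusted p = 0.0155). Relative to the family median both copies were also higher, by 0.79 ± 0.11 for Rps27l (adjusted p = 7.02e-05) and 0.60 ± 0.11 for Rpl36al (adjusted p = 0.00085). On that relative scale 4 members were higher and 1 lower, against 10.7% and 19.8% of all features.

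Rps19bp1, which encodes a nucleolar protein that binds Rps19 and is no subunit itself, rose by 0.70 ± 0.18 (adjusted p = 0.00617). Rpl7l1, a nucleolar relative of Rpl7, rose by 0.59 ± 0.16 (adjusted p = 0.00762). The member that fell was Rpl3l, the muscle form of Rpl3, at -3.04, -3.80 and -3.46 in LSK and -5.15, -4.57 and -4.08 in CMP, where 1 of 3 arrays was well above background. Markers of other cells moved in this comparison too. The summed secondary and tertiary granule genes lay at 8.23 to 8.61 in LSK and 5.20 to 6.11 in CMP (5 of 5 lower), and the erythroid markers at 4.90 to 5.19 and 6.88 to 7.34 (8 of 8 higher). Their part in the member differences was not tested. Without CMP replicate 2 the count of members that rose was 17, the lowest of any omission.

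Between the progenitors of the myeloid branches the family stood nearly still. For MEP against CMP, limma called 0 of 85 members (4.48% of all features were called), and for GMP against CMP 0 of 85 (17.9% of all features). The median member differences were -0.08 and 0.14. Across the alternative ways of processing, the first ran from -0.084 to 0.035 and the second from -0.575 to 0.154. With spike-in scaling the family median was 5.14 in CMP and 4.51 in GMP. The direct comparison of MEP with GMP gave 14 members lower and 0 higher of 85, against 18.2% of features lower and 13.7% higher. The median difference was -0.22 and became 0.04 with the percentile over detected probes, 0.09 after quantile normalization and 0.53 with spike-in scaling, so that no direction of the family is given here. Without GMP replicate 1, 3 members were lower.

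Among the 14, Rpl36al was lower in MEP by 0.54 ± 0.11 on the log2 scale (-0.54, adjusted p = 0.00155) and Rpl7l1 by 0.59 ± 0.17 (-0.59, adjusted p = 0.016); with spike-in scaling both differences were positive. Rps12, a small-subunit protein, measured 9.19, 8.94 and 8.44 in MEP and 9.76 and 9.73 in GMP. All 3 MEP arrays lay below both GMP arrays, and MEP spread widely. The difference was -0.89 ± 0.19 (adjusted p = 0.00183). Its other probe measured 9.47, 9.56 and 9.82 in MEP and 9.96 and 9.74 in GMP, where the groups overlapped.

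From MEP to early erythroblasts, the question was how the translation machinery changes when red cell maturation begins. The family fell, unevenly: 63 of 85 members fell and 6 rose, with 38.5% of all features lower and 42.9% higher in the same test. The median member difference was -0.74 while that of all features was 0.17. Of the large-subunit and stalk genes without copies, 38 of 46 fell and 2 rose (median -0.77), and of the small-subunit genes 19 of 31 fell and 3 rose (median -0.58). The fall of the median held in every scaling tried, from -0.73 to -4.18, the last with spike-in scaling, which put the all-feature median at -3.27. On slide 3, the only slide with both populations, it was -0.85.

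The deepest falls among subunit genes were those of Rps19, Rpl32, Rpl17 and Rpl5. Rps19, a small-subunit protein and the gene most often mutated in Diamond-Blackfan anemia, measured 8.12, 8.11 and 8.24 in MEP and 6.66 and 6.24 in early erythroblasts. That is a fall of 1.71 ± 0.14 on the log2 scale (-1.71, adjusted p = 3.15e-08), with no overlap of arrays. Rpl5, which with Rpl11 and 5S RNA forms the particle that restrains Mdm2, measured 7.96, 7.85 and 7.80 in MEP and 6.09 and 6.35 in early erythroblasts (-1.65 ± 0.17, adjusted p = 2.67e-07). Its partner Rpl11 differed by -1.41 ± 0.15 (adjusted p = 6.05e-07). Rpl32 differed by -1.65 ± 0.13 (adjusted p = 1.37e-08) and Rpl17, which lines the exit of the peptide tunnel, by -1.65 ± 0.11 (adjusted p = 3.81e-09). Rpl32l, listed as a copy of Rpl32, had nearly the values of its parent (-1.76 ± 0.11), and the probes of the pair may not tell the transcripts apart. Many other processed copies of ribosomal protein genes exist in the genome, and what they add to a probe's signal was not tested.

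Other subunits were not called. Rplp2, Rps16, Rpl23, Rps10, Rpl8, Rps26 and Rps20 differed by -0.11 to 0.08. These near-zero values depended on the probe where a gene had several. Other probes differed by -0.878 and -3.725 for Rpl23, 0.543 and -0.546 for Rps16 and -0.319 for Rpl8. The rest of these genes had no other probe. Among genes often measured on their own, Rps6, the S6 kinase substrate, differed by -0.58 ± 0.13 (adjusted p = 0.000912) and Rps27a, made as a fusion with ubiquitin, by -0.41 ± 0.12 (adjusted p = 0.00674). Rps14, the small-subunit gene lost in the 5q- syndrome, was not called (-0.28 ± 0.19, adjusted p = 0.181). Relative to the family median, 36 members were higher and 16 lower, against 55.3% and 25.8% of all features.  Those that rose were Rpl41, Rpsa, Rps12, Rps29, Rplp0 and Rps23rg1. Rpl41, the smallest ribosomal protein, measured 9.26, 9.31 and 9.67 in MEP and 10.63 and 10.08 in early erythroblasts (0.94 ± 0.18, adjusted p = 0.000177). Rpsa, the small-subunit protein also known as the laminin receptor, measured 9.24, 9.25 and 9.57 in MEP and 10.46 and 10.05 in early erythroblasts (0.90 ± 0.17, adjusted p = 0.00013). Rps12 rose by 0.76 ± 0.19 (adjusted p = 0.0017), Rps29 by 0.55 ± 0.17 (adjusted p = 0.00627) and Rplp0, the base of the stalk that recruits elongation factors, by 0.49 ± 0.15 (adjusted p = 0.00816).

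Early erythroblasts lay above MEP on every array for Rpl41, Rpsa, Rps29 and Rplp0. These rises depended on probe and processing. Rpsa had 3 other probes, which differed by -0.47, -1.21 and -2.45 in the same comparison. The other Rps12 probe differed by -0.51. Its mean over all arrays nearly equalled that of the probe used (9.103 against 9.112), and on every MEP array it was the brighter one. Rpl41 differed by -0.05 after quantile normalization, and Rps29 and Rplp0 were negative after it and after normexp background correction. Brightness moved with this result: on MEP arrays, 34 to 45 members had an intensity above 50% of the brightest probe, on erythroblast arrays 0. In 42 of 50 genes with several detected probes the dimmest probe gave the more negative difference, and the median gap from the brightest was -0.39. The part of probe brightness in the result was not tested. With every probe fitted on its own, 140 of 173 member probes fell and 8 rose (80.8% of all probes were called in either direction).

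**Figure D3:**
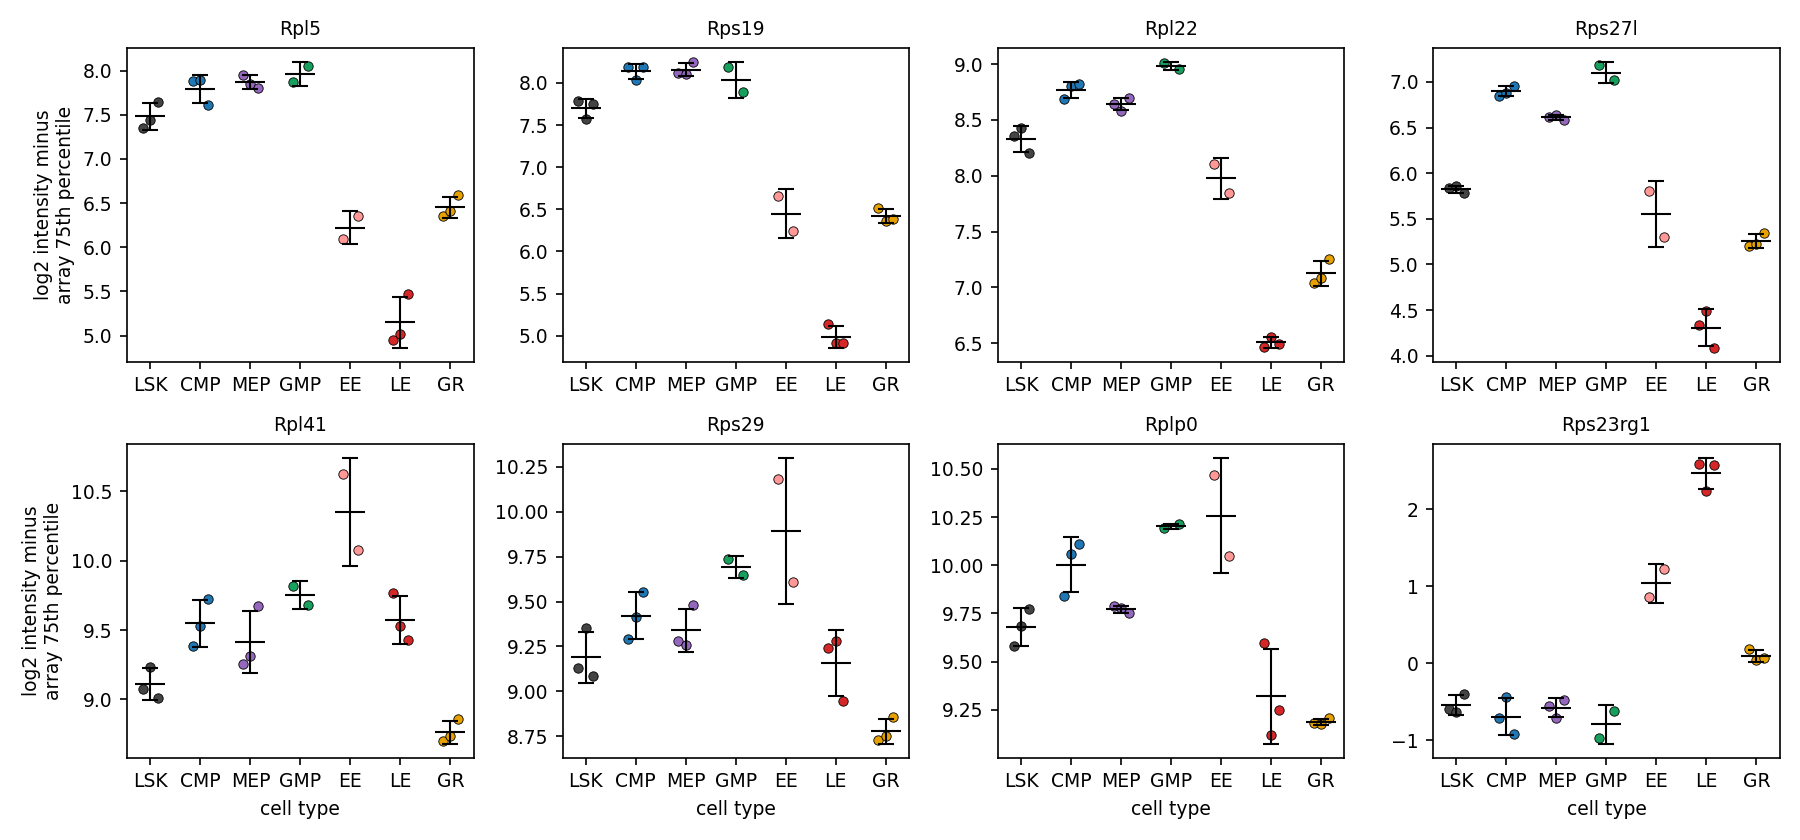
Each panel plots 1 gene; points are arrays, the horizontal mark and bar the mean ± SD of a cell type, and the vertical axis log2 intensity minus the array's 75th percentile, with a scale of its own in each panel. Rpl5, Rps19, Rpl22 and Rps27l are lowest in late erythroblasts, while Rpl41, Rps29 and Rplp0 are highest in early erythroblasts and Rps23rg1 in late erythroblasts, at 2.23 to 2.59.

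From early to late erythroblasts the fall took in every subunit gene. Of 84 members tested 83 fell and 1 rose, against 38.2% of all features lower and 21.6% higher. All 46 large-subunit and stalk genes fell, by 0.54 to 1.47 on the log2 scale (-0.54 to -1.47), and so did all 31 small-subunit genes, from -0.55 to -1.46. The median member difference was -0.97 and that of all features -0.19; within slides 1 and 3 the member median was -1.05 and -0.91. Across the scalings the median ran from -0.57 to -1.88, the last with spike-in scaling, which put the all-feature median at -1.10. Members called lower numbered 70 with the percentile over detected probes, 76 after quantile normalization and 77 with only the groups compared. They numbered 83 with normexp and with spike-in scaling. Probe by probe, 164 of 170 fell and 1 rose (58.8% of all probes were called). Relative to the family median, 9 members were higher and 8 lower, against 53.1% and 8.04% of all features.

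Rpl22, a large-subunit protein with roles in lymphocyte development, measured 8.11 and 7.84 in early and 6.47, 6.56 and 6.50 in late erythroblasts, without overlap (-1.47 ± 0.11, adjusted p = 1.17e-07). Its copy Rpl22l1 differed by -0.61 ± 0.13 (adjusted p = 0.000965). Rps19 fell again, to 5.14, 4.92 and 4.91 (-1.46 ± 0.14, adjusted p = 7.72e-07). Rplp1, a stalk protein, was not called from MEP to early erythroblast (-0.27 ± 0.15, adjusted p = 0.101) and here differed by -1.41 ± 0.14 (adjusted p = 1.21e-06). Rps4x, the small-subunit protein encoded on the X chromosome, differed by -1.40 ± 0.12 (adjusted p = 2.11e-07). The genes that had risen in early erythroblasts fell too, Rpl41 by 0.78 ± 0.17 (-0.78, adjusted p = 0.00138) and Rpsa by 1.18 ± 0.16 (-1.18, adjusted p = 2.22e-05).

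The exception was Rps23rg1, a retroposed copy of Rps23 that encodes a membrane protein rather than a ribosome subunit. Its level was -0.71 to -0.47 in MEP, 0.86 and 1.22 in early erythroblasts and 2.59, 2.23 and 2.57 in late erythroblasts. It rose by 1.61 ± 0.17 (adjusted p = 5.42e-07) and then by 1.43 ± 0.17 (adjusted p = 5.76e-06). Its first rise became a difference of -1.83 with spike-in scaling.

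Markers of other cells moved along the erythroid path as well. The summed level of the 5 secondary and tertiary granule genes was 4.73 to 5.72 in MEP, 6.65 to 8.52 in early and 8.91 to 9.02 in late erythroblasts, where all 5 were well above background on every array. Primary granule genes went from 8.45 to 9.21 in MEP to 6.29 to 7.95 in early and 8.45 to 8.54 in late erythroblasts. Macrophage markers went from -0.91 to -0.52 in MEP to 2.63 to 3.30 in late erythroblasts. Their part in the fall of ribosomal protein levels was not tested.

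The family fell on the granulocyte path as well. From GMP to granulocytes, 83 of 86 members fell and 2 rose, against 38.7% of features lower and 27.9% higher. The median member difference was -1.24 and that of all features -0.18. Again all 46 large-subunit and stalk genes (-0.64 to -1.86) and all 31 small-subunit genes (-0.53 to -1.80) fell. The member median stayed negative in every scaling, between -0.68 and -1.27, but with spike-in scaling 5 members were lower and 1 higher, and the median of all features was 0.16. Probe by probe, 170 of 174 fell and 2 rose (65.7% of all probes were called). Relative to the family median, 17 members were higher and 9 lower, against 62.3% and 9.85% of all features. GMP and granulocytes shared no slide, so that slide and cell type cannot be told apart in a direct comparison.

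Rpl22 measured 9.01 and 8.95 in GMP and 7.04, 7.09 and 7.25 in granulocytes, the deepest fall of a subunit gene (-1.86 ± 0.12, adjusted p = 4.94e-09). Rps27l, which had risen on leaving the LSK gate, went from 7.18 and 7.02 to 5.21, 5.23 and 5.34 (-1.84 ± 0.15, adjusted p = 5.34e-08). Rpl36a, a large-subunit protein, followed (-1.83 ± 0.10, adjusted p = 1.95e-09). Smaller falls were those of Rps9 (-0.53), Rps27 (-0.60) and Rpl10, a large-subunit protein at the peptidyl transferase centre (-0.64 on the log2 scale). Relative to the family median Rpl10 was higher by 0.63 ± 0.12 in granulocytes (adjusted p = 0.000372). Rpl10 was among 17 members higher on this scale. Its 2 other probes differed by -1.06 and -0.54, so the size of this departure depends on the probe.

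Rps23rg1 rose by 0.89 ± 0.17 (adjusted p = 0.000356). Rpl3l also rose: 0 of 2 GMP arrays and 3 of 3 granulocyte arrays (-2.97, -3.03 and -2.89) measured it well above background, so that its level was at least 1.94-fold higher in granulocytes (adjusted p = 2.46e-07). Markers of other cells moved too: the summed erythroid markers lay at 9.28 to 9.37 in granulocytes against 3.99 to 4.43 in GMP. Of these 8 markers, 6 were higher, 1 was lower and 1 was not called, and all 8 were well above background on every granulocyte array. The highest of them in granulocytes were the globins Hba-a1 (8.381) and Hbb-bt (8.205). Macrophage markers lay at 5.95 to 6.01 against 3.26 to 3.28. B cell markers lay at 4.89 to 4.98 against 3.89 to 4.15 (3 of 4 higher). T and NK cell genes split, 3 higher and 1 lower, with sums of 6.30 to 6.38 against 7.09 to 7.67. Their part in the granulocyte differences was not tested.

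To compare maturation on the red and the granulocytic path, the change from MEP to late erythroblast was set against that from GMP to granulocyte. The red path took most members further down: of 84 tested, the interaction was negative and past the test for 43 and positive for 5, against 37.1% and 41% of all features. The median was -0.39 for members and 0.14 for all features. With spike-in scaling, 84 members were negative and the median of all features was -4.56.

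Rps19 had the most negative interaction. Its mean level went from 8.16 in MEP to 4.99 in late erythroblasts and from 8.04 in GMP to 6.42 in granulocytes (interaction -1.56 ± 0.18, adjusted p = 1.55e-06). Rps18 (-1.55 ± 0.26, adjusted p = 6.69e-05), Rps21 (-1.47 ± 0.46, adjusted p = 0.00843) and Rpl32 (-1.41 ± 0.16, adjusted p = 1.33e-06) came next. Arrays of Rps21 scattered widely within groups, from 6.25 to 7.21 in LSK alone. Toward the other side stood Rps23rg1 (2.15 ± 0.22, adjusted p = 4.01e-07), Rpl41 (1.15 ± 0.23, adjusted p = 0.0003), Rps29 (0.73 ± 0.21, adjusted p = 0.00562), Rplp0 (0.56 ± 0.20, adjusted p = 0.0155) and Rps26 (0.51 ± 0.22, adjusted p = 0.0435). The last 3 were negative after quantile normalization and after normexp correction.

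**Figure D4:**
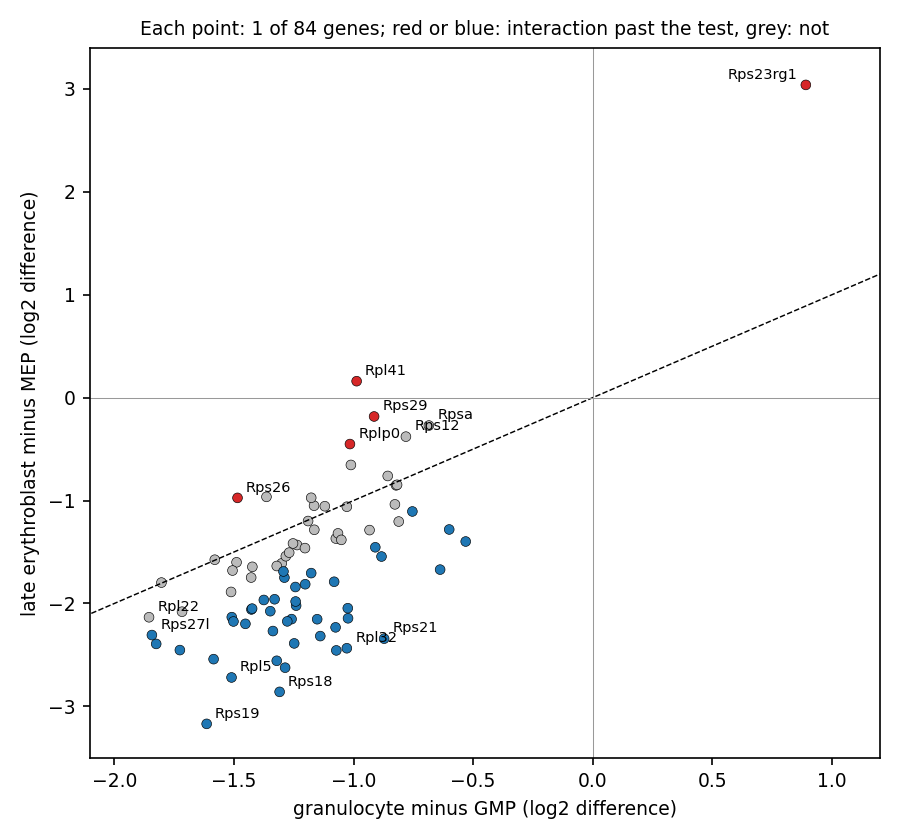
Each point is 1 of the 84 members well above background on every array, with the granulocyte minus GMP difference on the horizontal and the late erythroblast minus MEP difference on the vertical axis (log2). The dashed line marks equal change; blue points had a negative and red points a positive interaction past the test, and grey points did not pass. Most points lie below the line, Rps19 at the bottom, and Rps23rg1 alone of these 84 lies above 0 on both axes.

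Genes mutated in Diamond-Blackfan anemia were counted apart. Of the 18 on the list, 8 rose from LSK to CMP, 12 fell and 1 (Rps29) rose from MEP to early erythroblast, and all 18 fell from early to late erythroblast and from GMP to granulocyte. Over all features, 23.7% were higher in the first comparison, 38.5% lower and 42.9% higher in the second, and 38.2% and 38.7% lower in the last ones. Their medians in these 4 comparisons were 0.30, -0.70, -1.01 and -1.26, next to 0.30, -0.74, -0.97 and -1.24 for all members. Rps19, Rpl5, Rpl11 and Rpl18 lay at the deep end in early erythroblasts, while Rps10 (-0.09 ± 0.13), Rps26 (-0.07 ± 0.17), and Rps24 (0.06 ± 0.16) were not called. The value for Rps24 is that of its brightest probe, and its other probes were called lower (-0.76 and -5.73).

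Proportions within the family shifted across cell types. With each array's family median subtracted, 65 of 86 members varied over the 7 cell types (moderated F test in limma, adjusted p under 0.05), against 95.8% of all 26217 features tested. The family median itself moved, from 9.0 in GMP to 6.99 in late erythroblasts, so that subtracting it shifts all other features. Shares of all features on this relative scale, here and above, are therefore no neutral reference for the members. Among members past this test, and besides Rps23rg1 and Rpl3l, the widest ranges of cell type means belonged to Rpl41 (2.11), Rpsa (1.82), Rps29 (1.70) and Rps12 (1.67). Rpl41 lay 0.43 to 0.80 above the family median in every array of LSK, CMP, MEP and GMP, 1.0 to 1.05 above it in granulocytes and 2.26 to 2.65 above it in erythroblasts, with no overlap between these 3 sets. Rps19 went the other way: -1.10 to -0.69 in LSK, CMP, MEP and GMP, -1.58 to -1.44 in early and -2.03 to -1.97 in late erythroblasts, and -1.42 to -1.15 in granulocytes. Proportions carry the probe dependence given above.

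The tissue-restricted copies were near the floor of the array. Rpl10l, a testis form of Rpl10, was well above background on 1 late erythroblast array and 1 granulocyte array. Rpl39l, a testis form of Rpl39, was well above background on 15 arrays, at -3.68 to -1.98 in LSK, CMP, MEP and GMP and -3.88 to -3.57 in granulocytes. It was well above background on 0 of 2 early erythroblast arrays, a level at least 1.07-fold lower than in MEP (adjusted p = 0.1). In late erythroblasts it measured -4.83 and -4.77 on 2 arrays and 1.36 on replicate 2, which stood alone.

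Rps24, a small-subunit protein with alternatively spliced last exons and a Diamond-Blackfan gene, had 3 probes that did not move together, and it was picked out after its values were seen. The probe annotated NM_011297 measured 9.37, 9.46 and 9.42 in LSK, 7.58, 7.29 and 7.16 in CMP and 8.09, 8.03 and 8.36 in MEP. It measured 4.45 and 4.80 in GMP, 1.84 and 3.02 in early erythroblasts, 2.02, 1.97 and 2.54 in late erythroblasts and 3.78, 3.8 and 3.79 in granulocytes. LSK stood above every other array, and MEP and GMP were far apart. With each probe fitted on its own, it differed by -2.07 ± 0.24 from LSK to CMP (adjusted p = 1.14e-05; 35% of probes were called) and by -2.72 ± 0.27 from CMP to GMP (adjusted p = 3.82e-06; 17%). The MEP minus GMP difference was 3.53 ± 0.27 (adjusted p = 1.36e-07; 31.1%) and the early erythroblast minus MEP difference -5.73 ± 0.27 (adjusted p = 5.24e-11; 80.8%).

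The other Rps24 probes did not share this pattern. That annotated NM_207635, which represents the gene above, was not called from LSK to CMP (0.21 ± 0.15), from CMP to GMP (0.31 ± 0.16) or from MEP to early erythroblast (0.06 ± 0.16). The probe annotated NM_207634 differed by 0.35 ± 0.14, -0.09 ± 0.16 and -0.76 ± 0.16 in these comparisons. Only the last of these was called in the limma fit of each probe (adjusted p = 0.000412). Within an array, where scaling cancels, the gap of the first probe to NM_207635 was 0.18 ± 0.03 (SD, n = 3) in LSK, -2.1 ± 0.32 (n = 3) in CMP, -1.22 ± 0.16 (n = 3) in MEP and -5.13 ± 0.15 (n = 2) in GMP. It was -7.01 ± 0.93 (n = 2) in early erythroblasts, -6.35 ± 0.33 (n = 3) in late erythroblasts and -5.14 ± 0.095 (n = 3) in granulocytes. The gap between the other probes moved only between -2.38 and -1.38. Whether the probe reports an isoform of Rps24 was not tested, since its sequence was not used here.

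**Figure D5:**
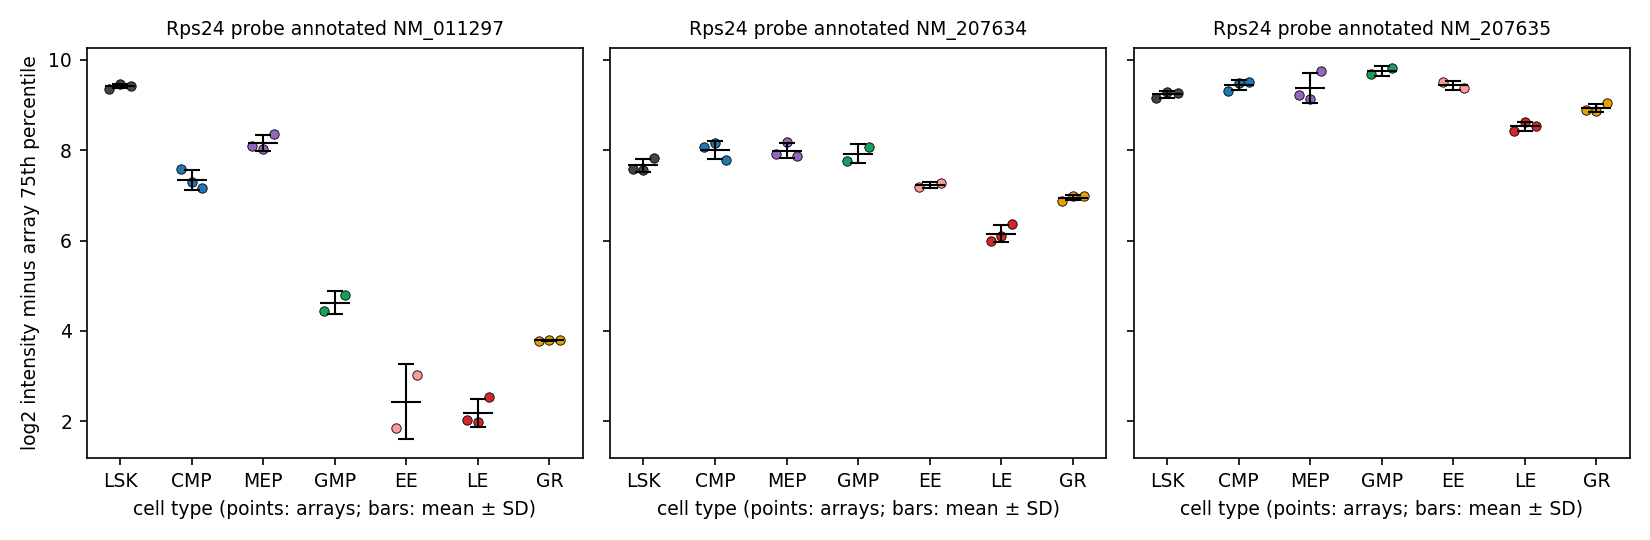
The 3 panels plot the 3 probes of Rps24, named by the RefSeq accession each is annotated with, on a shared vertical axis of log2 intensity minus the array's 75th percentile. Points are arrays and bars the mean ± SD of each cell type. The NM_011297 probe drops from 9.37 to 9.46 in LSK to 1.84 to 3.02 in early erythroblasts, and the NM_207635 probe stays between 8.43 and 9.83 on all arrays.

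Rpl31 held a smaller split. Its 3 probes annotated NM_001252218 differed by -0.50, -0.64 and -0.62 from MEP to early erythroblast and the dimmer probe annotated NM_053257 by -2.40 ± 0.12 (adjusted p = 1.11e-10). Over 50 genes with several probes detected everywhere, the probes had the same sign in 45 for this comparison, 48 from early to late erythroblast, 50 from GMP to granulocyte and 48 from LSK to CMP. Between the progenitors, where member differences were small, it was 34 for MEP against CMP, 30 for GMP against CMP and 32 for MEP against GMP; of the 8 such genes called in the last, 5 had probes of the same sign.

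Genes that accompany the ribosome moved in part with it. Fau, whose product carries a ribosomal protein fused to a ubiquitin-like protein, and Rack1, a scaffold on the small subunit, are not caught by the naming rule. From MEP to early erythroblast Fau and Rack1 were not called. Both fell from early to late erythroblast, with differences of -0.68 ± 0.14 for Fau and -1.07 ± 0.13 for Rack1. Of 23 elongation factors and other mRNAs of the same tract, 16 rose from LSK to CMP, 14 fell and 5 rose from MEP to early erythroblast, 19 fell and 1 rose to late erythroblast, and 22 fell to granulocyte. The shares of all features were 23.7% higher, 38.5% lower and 42.9% higher, 38.2% lower and 21.6% higher, and 38.7% lower. Eef1a1, which delivers tRNA, differed by -1.33 ± 0.14 from MEP to early erythroblast (adjusted p = 3.15e-07) and Eef2, which moves the ribosome along, by -0.996 ± 0.13 (adjusted p = 6.47e-06). Poly(A)-binding proteins were among the risers: Pabpc4 rose by 2.17 ± 0.18 into early and Pabpc1 by 2.31 ± 0.16 into late erythroblasts.

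Ribosome assembly factors fell with the start of maturation. Of 36 biogenesis genes, 31 rose from LSK to CMP (median 0.81), 33 fell and 1 rose from MEP to early erythroblast (median -3.42), and 33 fell from GMP to granulocyte (median -2.09), against 23.7% of all features higher, 38.5% lower and 42.9% higher, and 38.7% lower. From early to late erythroblast, where 83 of 84 ribosomal protein genes fell, 9 of 32 fell and 5 rose (median -0.07), against 38.2% and 21.6% of all features. Of the 78 mitochondrial ribosomal protein genes, 72 of 77 tested rose from LSK to CMP (median 0.84), against 23.7% of all features. They fell in 58 of 77 into early erythroblasts (median -1.26), in 62 of 77 into late erythroblasts (median -0.92) and in 74 of 77 into granulocytes (median -1.36), against 38.5%, 38.2% and 38.7% of all features.

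Into early erythroblasts, the regulators of translation and the rescue and turnover genes were called in both directions. Of the 22 regulators, 10 fell and 6 rose into early erythroblasts, against 38.5% and 42.9% of all features, and 12 fell and 2 rose into granulocytes, against 38.7% and 27.9%. Of the 19 rescue and turnover genes, 7 rose and 8 fell into early erythroblasts, against 42.9% and 38.5%, and the interaction was positive for 8 and negative for 5 of 17, against 41% and 37.1%. The genes below are given singly and not as a pattern of either list. Larp1, which binds the terminal tract, went from 5.82 in MEP to 4.14 in early and 3.27 in late erythroblasts, a first difference of -1.68 ± 0.12 (adjusted p = 5.23e-09), and from 6.47 in GMP to 4.64 in granulocytes (-1.83 ± 0.12, adjusted p = 8.27e-09). Eif4ebp1, the inhibitor of cap binding under mTOR, differed by -2.35 ± 0.21 into early erythroblasts (adjusted p = 7.07e-08) and was not called into granulocytes (0.43 ± 0.21, adjusted p = 0.0825). Eif2ak1, the kinase that slows translation when heme is short, rose by 4.71 ± 0.16.

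Pelo and Hbs1l, which free stalled ribosomes, rose into early erythroblasts by 1.02 ± 0.14 (adjusted p = 6.64e-06) and 0.94 ± 0.13 (adjusted p = 7.02e-06) and fell into granulocytes (-2.40 ± 0.14 and -1.05 ± 0.13). Their interactions were 2.55 ± 0.18 (adjusted p = 4.31e-09) and 1.60 ± 0.17 (adjusted p = 3.32e-07). Ube2o, the ubiquitin-conjugating enzyme that marks free ribosomal proteins in reticulocytes, had a level of 3.03 in MEP, 8.10 in early and 10.63 in late erythroblasts and 2.21 in granulocytes. Tsr2, the chaperone that hands Rps26 to the small subunit, was well above background on 3 of 3 MEP arrays, 1 of 2 early erythroblast arrays and 0 of 3 late erythroblast arrays; no difference is given for it.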

How the data were processed

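Total RNA of 19 samples was hybridised to custom Agilent arrays. The deposited intensity values come, per the file headers, from Feature Extraction 11.5.1.1 (protocol GE1_1105_Oct12), with mm9 annotation; the labels name Cy5, and the files hold 1 channel called green. The authors' deposited series values were the background-subtracted intensity, not scaled between arrays, and served as an alternative. Here log2 of the processed signal was centred on each array's 75th percentile, leaving out 1319 control spots and outlier flags; no member value was lost this way. Symbols came from RefSeq accessions (GRCm38.p6 list). A limma 3.58.1 model (R 4.3.3) held 1 mean per cell type over all arrays (eBayes, Benjamini-Hochberg over all features, threshold 0.05) and checked on simulated data. Features entered a test if at least 1 compared group (for the interaction, all 4 groups) had all of its arrays well above background, and a call required this of the higher group. At-least folds set the brighter group's mean against the dimmer group's floor.

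The members and lists were chosen with earlier results of these data known. Named were the 4 largest called differences in each direction and comparison, the 6 widest family-relative ranges, paralog pairs, stalk genes, up to 4 genes from each accompanying list, and fixed single genes; other members and probes were picked after their values were seen, and some genes the rule takes are not reported here. Alternatives were other background correction (normexp on the median signal, in place of the planned mean signal, which was not used here), other scalings, no filter, other probe choices, slide or replicate blocks, fits of only the groups compared, and omission of each array.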

Additional observations from a re-analysis of the deposited data

Results flagged for a closer look

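The change from MEP to late erythroblast and that from GMP to granulocyte differed in the interaction test, in log2 units, for the 9 members with the largest such differences in each direction. The red path was lower for Rps19 (-1.56), Rps18 (-1.55), Rps21 (-1.47) and Rpl32 (-1.41). It was higher for Rps23rg1 (2.15), Rpl41 (1.15), Rps29 (0.73), Rplp0 (0.56) and Rps26 (0.51). All 9 genes are at their values with each array centred on its 75th percentile; the next part gives where scaling turned them. No group had enough arrays for a test of single outlying arrays.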

How the results depend on the processing

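Recalculated counts of members called, for 17 results, stayed within 1.5 times the reported count in 247 cases, were larger in 21 and smaller in 33. From LSK to CMP, 33 members were higher; the count was 2 after quantile normalization (4 lower) and 2 with the percentile over detected probes (2 lower), 0 with spike-in scaling (0 lower), 19 without the filter on dim features and 57 with slide as a block. The dimmest probe gave 3 lower and the mean of all probes 2. From CMP to GMP, members called lower numbered 5 with the dimmest probe (a choice added after seeing the data), 2 with the detected percentile and 1 with the mean of probes, quantile normalization or no filter. For MEP against GMP, the 14 lower members became 8 with the dimmest probe or the mean of probes (4 and 2 higher), 6 without the filter (1 higher), 5 with only these groups or with slide as a block, 1 with the detected percentile (6 higher) or quantile normalization (13 higher) and 0 with spike-in scaling; normexp gave 2 higher. From MEP to early erythroblast, the 6 higher members became 2 with the dimmest probe, 3 with the mean of probes, 1 with normexp or quantile normalization and 0 with spike-in scaling. Spike-in scaling gave 0 higher from early to late erythroblast; into granulocytes it gave 1 higher and 5 lower, and normexp 1 higher. The interaction's 5 higher and 43 lower members became 1 and 81 with normexp, 1 and 76 with quantile normalization and 0 and 84 with spike-in scaling; 3 were higher with the dimmest probe and 2 with slide as a block. The cause was not tested.

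Leaving out 1 array gave 17 to 28 members higher from LSK to CMP, 3 to 11 lower for MEP against GMP, 0 to 1 lower from CMP to MEP and 0 to 1 higher from CMP to GMP. Deviations of same-numbered arrays from their group means had correlations from -0.52 to 0.48. With groups of 2 or 3 arrays these values cannot decide whether replicate numbers pair samples. Same-numbered CMP and MEP arrays shared slides 2, 3 and 4, with correlations of 0.236, -0.023 and 0.41. With a replicate block, 28 members were higher from LSK to CMP, 10 lower in MEP than GMP, and 63, 83 and 83 lower in the maturation steps.

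Of single genes, with spike-in scaling the MEP minus GMP differences of Rpl7l1 and Rpl36al were 0.15 and 0.21, and the early erythroblast minus MEP differences of Rps23rg1, Rpl41, Rpsa, Rps12, Rps29 and Rplp0 were -1.83, -2.51, -2.54, -2.68, -2.89 and -2.96. Quantile normalization gave Rpl41 -0.049, Rps29 -0.16 and Rplp0 -1.06, and normexp gave Rps29 -0.19 and Rplp0 -0.26. Rpsa was -0.81 with the mean of probes and -1.21 with the dimmest, Rps12 -0.51 and Rplp0 -0.007 with the dimmest. Interactions with spike-in scaling were -2.55 for Rps23rg1, -3.55 for Rpl41, -3.97 for Rps29, -4.14 for Rplp0 and -4.19 for Rps26; Rps29, Rplp0 and Rps26 were -0.16, -0.70 and -0.047 with quantile normalization and -0.22, -0.37 and -0.47 with normexp. The share of all calls that were higher was 64% from LSK to CMP and became 31.8% with the detected percentile, 51.2% with quantile normalization and 45.7% with spike-in scaling; for MEP against GMP it was 42.9% and became 66.7%, 55.1% and 81.7%. From MEP to early erythroblast 52.7% became 69.3% without the filter and 3.24% with spike-in scaling, and for the interaction 52.5% became 66.7% and 0.602%. From CMP to GMP 52% became 63% with normexp, 35% with the detected percentile, 41.9% with quantile normalization and 15.4% with spike-in scaling. With the detected percentile and spike-in scaling, 40.9% became 62.8% and 29.2% from CMP to MEP, 36.1% became 54.7% and 2.71% from early to late erythroblast, and 41.9% became 52.6% and 64.3% from GMP to granulocyte. Signal over background limits the 3 dim copies and the lower erythroblast signals.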
